A study of Mus musculus x Rattus norvegicus with 2 samples.

Results

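Foxf1, Tbx2, Tbx3, Tbx4, Tbx5, Tcf21, Meox2, Twist1 and Prrx1 are 9 transcription factors of the embryonic lung mesenchyme. They were chosen by symbol, 9 of 55293 mouse symbols and the same 9 of 25238 rat symbols, and all 18 features were found. The data were 1 control and 1 mutant droplet library (10x 3' v3) of E20.5 lung from mouse-rat chimeras, in which mouse cells of strain C57BL/6 and rat cells of strain SD developed in one embryo. The control lung came from a wild-type rat host and held cells of both species, and the mutant lung came from an Nkx2-1-/- rat host. How many embryos each library holds (not given in the sources used here) is open, and in a chimera the host cells carry the host genotype while the mouse cells do not. With 1 library per group no difference had a replicate check, no test was made, and every interval is a 95% interval of counting error alone.

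FOXF1 is a forkhead factor downstream of hedgehog signalling that is needed in lung mesenchyme and in lung endothelium. TBX2 to TBX5 share the T-box DNA-binding domain. TBX4 and TBX5 act in lung budding and branching, and TBX2 and TBX3 are repressors that keep mesenchymal cells dividing. TCF21 and TWIST1 are basic helix-loop-helix factors, TCF21 being known as a marker of lipid-storing lung fibroblasts, while MEOX2 and PRRX1 are homeobox factors of mesodermal tissue.

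The genes lie on mouse build mm10 as follows. Tbx2 (chromosome 11, 85832551 to 85841948) and Tbx4 (chromosome 11, 85886422 to 85916097) are neighbours on the plus strand, 44.5 kb apart. Tbx3 (chromosome 5, 119670669 to 119684724) and Tbx5 (chromosome 5, 119832668 to 119885219) form the other T-box pair, 148 kb apart and both on the plus strand. Foxf1 lies on chromosome 8 (121084386 to 121088144, plus strand), Tcf21 on chromosome 10 (22817281 to 22820174, minus strand) and Prrx1 on chromosome 1 (163245119 to 163313710, minus strand). Meox2 (37108540 to 37179534) and Twist1 (33957671 to 33959829) are both on the plus strand of chromosome 12. Total intron length was 0.531 kb for Twist1, 0.545 kb for Tcf21, 1.34 kb for Foxf1, 5.77 kb for Tbx2, 7.43 kb for Tbx3, 26.3 kb for Tbx4, 47.9 kb for Tbx5, 57.5 kb for Prrx1 and 68.6 kb for Meox2.

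Because the T-box genes are related, the longest run of identical bases shared by each pair of members was sought in their longest coding transcripts (GENCODE vM21). The longest of these runs that lay wholly in coding sequence are shown. They were 23 bases for Tbx4 and Tbx5 (coding positions 724 to 746 of Tbx4) and 20 bases for Tbx2 and Tbx5 (coding positions 667 to 686 of Tbx2).
Tbx4 and Tbx5: cagctgaaaattgagaacaaccc
Tbx2 and Tbx5: atcctgaactccatgcacaa
The first run lies at coding positions 670 to 692 of Tbx5 and the second at 514 to 533. The longest runs of Tbx3 with these genes were 14 bases with Tbx2 and 17 with Tbx4, and 19 with Tbx5 that were not wholly coding. Members of different families shared runs as long. Tbx5 and Prrx1 shared 24 bases and Tcf21 and Prrx1 19, not wholly coding, and Foxf1 and Twist1 17 coding bases. Run length is thus no measure of how alike the transcripts are. Only the longest run of a pair was kept, so shorter coding runs were not sought.

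The 2 libraries held 123047433 and 103627303 unique molecular identifiers (UMIs, 1 per captured RNA molecule), control first. After filters 7260 control and 8497 mutant mouse cells and 725 and 79 rat cells remained. Of the deposited barcodes 47 occurred in both libraries, and of those kept 29. The rat Nkx2-1 feature had 3993 UMIs in control rat cells and 0 in mutant rat cells. None of the 79 mutant rat cells was named epithelial, so the 0 is not a check within one cell type. Mouse cells named from marker lists, and so called "-like", were 2734 control and 3400 mutant fibroblast-like, 402 and 78 smooth muscle-like, 484 and 234 pericyte-like, 1400 and 1904 endothelial-like, and 719 and 2032 epithelial-like. Endothelial markers summed to 8540 and 9798 UMIs per 1000000 UMIs of the same cells (CPM) in endothelial-like cells against 164 and 156 in fibroblast-like cells, and smooth muscle markers to 15360 and 13085 in smooth muscle-like cells. The 2 matrices were made with different versions of the counting software (Cell Ranger 6.0.1 for the control, 7.0.1 for the mutant), which cannot be told apart from the condition. In fibroblast-like cells genes with introns over 50 kb had a median log2 difference of 0.63, those up to 10 kb one of -0.43. Differences of the members in mouse cells are therefore also plotted relative to measured genes of like intron length. Such values are given where the call changes and in some other cases. For rat cells no such value could be made, as no rat annotation was used here. Cell cycle markers also differed between the libraries, summing to 1818 CPM in control and 195 CPM in mutant fibroblast-like mouse cells. They were 665 and 113 CPM in smooth muscle-like, 2234 and 620 CPM in pericyte-like and 2540 and 1340 CPM in endothelial-like cells. The part of this in the members' differences was not tested.

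Across mouse cells the members fell into 4 patterns of place. Tbx2, Tbx4 and Tbx5 were present in every mesenchymal group and, apart from Tbx2 in mutant endothelium, far lower in endothelial and epithelial cells. Foxf1 and Tbx3 were highest in smooth muscle cells, myofibroblasts and endothelium, and in pericytes Foxf1 was high but Tbx3 was not. Tcf21 and Meox2 were high in alveolar and adventitial fibroblasts. Prrx1 was highest in adventitial fibroblasts, and Twist1 was scarce in all cells.

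**Figure D1:**
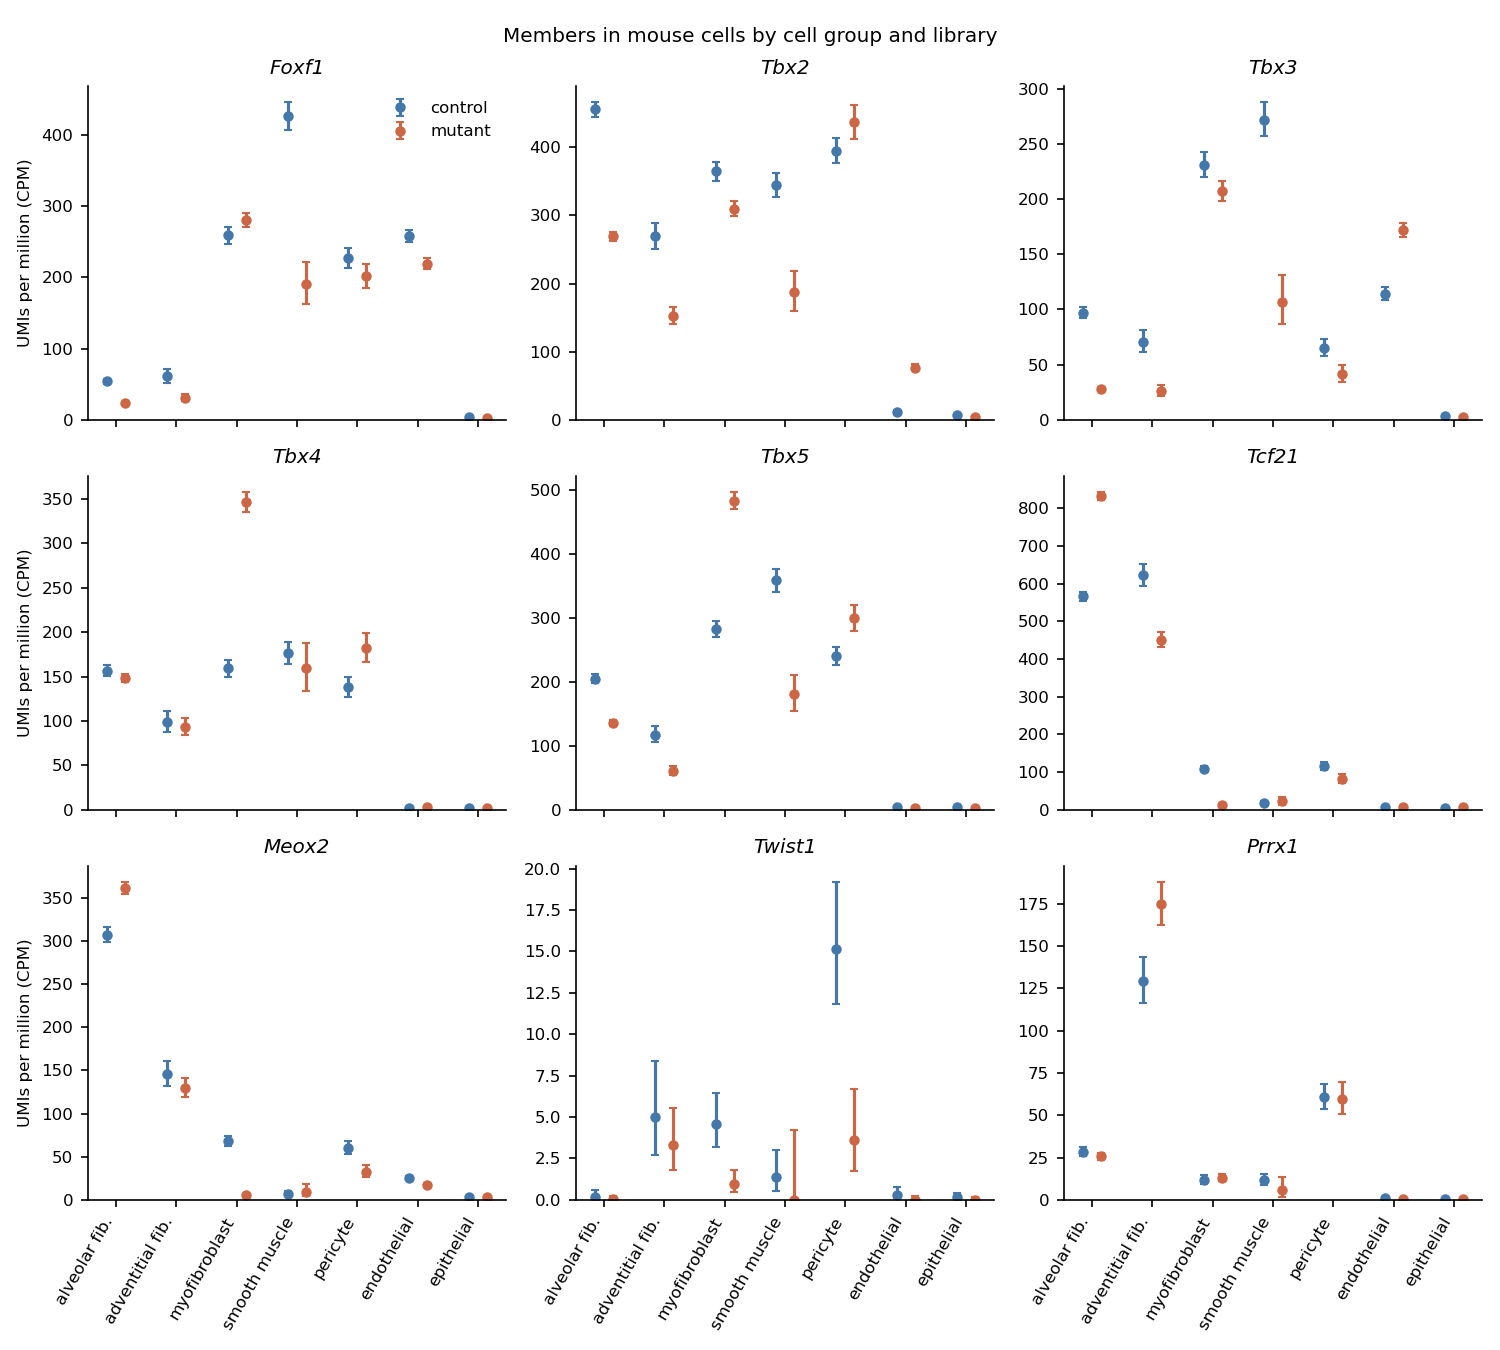
Level of each member (UMIs per 1000000 UMIs of the same mouse cells, y axis from 0, a separate scale per gene) in 7 cell groups, control in blue and mutant in orange, with exact Poisson intervals. Foxf1 is low in alveolar and adventitial fibroblasts, where Tcf21 and Meox2 are high; Tbx4 and Tbx5 stay at the epithelial level in endothelial cells.

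In epithelial cells, which should lack these RNAs, the 9 members ranged from 0.179 to 7.25 CPM in control and from 0 to 6.86 CPM in mutant cells. These values serve as the level of free RNA, and endothelial Tcf21 (6.85 and 7.73 CPM) was close to them. Endothelial Tbx4 (2.50 CPM control, 2.70 mutant) and Tbx5 (3.83 and 3.71) were at that level. At an equal depth of 2000 UMIs per cell, Tbx4 was seen in 0.595% of 1008 control endothelial cells and in 0.701% of 713 control epithelial cells, against 24.4% of 2674 control fibroblasts. Tbx4 RNA was thus not detectable in endothelium above free RNA at this depth.

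Tbx4 was 147 CPM in control and 193 CPM in mutant fibroblasts, 176 and 160 CPM in smooth muscle cells, and 138 and 182 CPM in pericytes. Tbx5 was 211 and 216 CPM in fibroblasts, 359 and 181 CPM in smooth muscle cells, and 240 and 299.8 CPM in pericytes. Both genes were therefore well above the epithelial level in all 3 mesenchymal classes of both libraries. Over 18 groups of cells (cell type and library, at least 50 cells each) Tbx4 and Tbx5 had the most alike patterns of any pair of members, with a Pearson r of 0.99 for log2(CPM + 10). For each of them the other was the nearest of 4634 genes ranked. The next nearest to Tbx5 was Foxf2, a second forkhead factor of mesenchyme, with r = 0.97. These groups share libraries and depth, so r describes likeness of pattern only. They include epithelial, immune and endothelial cells, where Tbx4 and Tbx5 were far lower than in mesenchyme, and r takes in that contrast. They leave out cells of no named type, 1251 control and 1379 mutant endothelial cells and 269 control fibroblasts. Control endothelium thus enters every r of this kind as 105 arterial-like cells alone.

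Tbx2 was 398 CPM in control and 267 CPM in mutant fibroblasts, 345 and 188 CPM in smooth muscle cells, and 394 and 437 CPM in pericytes. In the smooth muscle cells and fibroblasts the mutant value was the lower one, and in pericytes the higher. Its nearest genes in pattern were Chst2 (r = 0.92) and Mylk (r = 0.89), the latter encoding the kinase of smooth muscle myosin light chain.

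Foxf1 was highest in control smooth muscle cells, at 427 CPM against 190 CPM in the mutant. It was 259 and 281 CPM in myofibroblasts, the fibroblasts that pull alveolar walls, 227 and 202 CPM in pericytes and 258 and 219 CPM in endothelial cells. In alveolar fibroblasts it was only 54.0 and 23.8 CPM, and in adventitial fibroblasts 61.2 and 31.3 CPM. The control values of myofibroblasts and endothelial cells had overlapping intervals. Tbx3 in the control also began with these groups, 272 CPM in smooth muscle cells, 231 CPM in myofibroblasts, 114 CPM in endothelial cells, 96.8 CPM in alveolar fibroblasts, 70.9 CPM in adventitial fibroblasts and 65.5 CPM in pericytes. Adventitial fibroblasts and pericytes were neighbours in that order whose counting intervals overlapped. Foxf1 and Tbx3 were each among the 3 nearest genes to the other (r = 0.92), beside Nes, which encodes the filament protein nestin, for Foxf1 (r = 0.93).

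Tcf21 was 567 CPM in control and 833 CPM in mutant alveolar fibroblasts and 623 and 451 CPM in adventitial fibroblasts. It was 116 and 83.0 CPM in pericytes, 109 and 14.0 CPM in myofibroblasts and 19.2 and 22.8 CPM in smooth muscle cells. Meox2 was 307 and 361 CPM in alveolar fibroblasts, 146 and 130 CPM in adventitial fibroblasts and 6.72 and 9.12 CPM in smooth muscle cells. Both genes were thus far lower in smooth muscle cells than in alveolar fibroblasts. Their patterns had r = 0.95, and both had Enpep, an aminopeptidase gene, among their 3 nearest genes (r = 0.96 for Tcf21 and 0.94 for Meox2).

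Tcf21 and Foxf1 divided the mesenchymal clusters. Of 17 clusters of fibroblasts, smooth muscle cells and pericytes, 9 had Tcf21 at 200 CPM or more, and in these Foxf1 reached 61.2 CPM at most. The 7 clusters with Foxf1 at 150 CPM or more had at most 127 CPM of Tcf21. The remaining cluster, 66 control cells named pericyte-like, had 48.7 CPM of Foxf1 and 69.0 CPM of Tcf21. Its smooth muscle markers (10180 CPM) exceeded its pericyte markers (3455 CPM), while the other control pericyte cluster had 2241 and 7963 CPM. Neither gene was used to build or name the clusters, and the limits of 200 and 150 CPM were set after the values were seen.

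**Figure D2:**
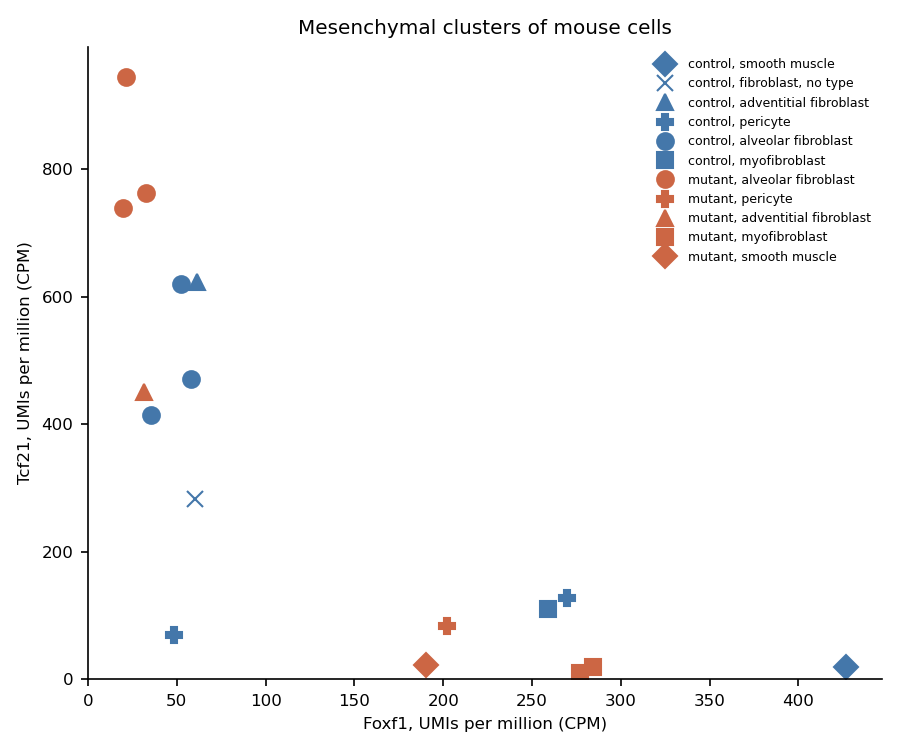
Foxf1 (x axis) against Tcf21 (y axis), both in CPM, in the 17 mesenchymal clusters of mouse cells; colours mark the library and symbols the cell type. No cluster combines Foxf1 above 61.2 CPM with Tcf21 of 200 CPM or more.

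The fibroblast class pools clusters that differ in these genes, so the counts of single fibroblasts with both RNAs are given as a description. The part of the difference between clusters in these counts was not tested. At 2000 UMIs per cell, Foxf1 and Tcf21 were found together in 98 of 3375 mutant fibroblasts, where the product of their shares gives 278, and in 152 of 2674 control fibroblasts, where it gives 215. Foxf1 and Meox2 were found together in 53 mutant cells against 168 by the product and in 95 control cells against 137. Tcf21 and Meox2 went the other way, together in 811 mutant cells against 553 and in 527 control cells against 450. Foxf1 and Tbx3 were together in 130 mutant cells against 68.4 and in 94 control cells against 83.8. Values within single fibroblast types were not computed.

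Prrx1 was 130 CPM in control and 175 CPM in mutant adventitial fibroblasts, 60.9 and 59.8 CPM in pericytes, 28.5 and 25.7 CPM in alveolar fibroblasts and 11.8 and 13.0 CPM in myofibroblasts. Among pericyte clusters of the control it was 157 CPM in 66 cells whose leading genes included Heyl and Notch3, against 37.7 CPM in the other 418. The 66 cells are those with more smooth muscle than pericyte marker RNA, and the near-equal pericyte levels of the libraries rest on them: without them the control value is the 37.7 CPM, beside 59.8 CPM in the mutant. Its nearest gene was Pcolce (r = 0.98), which encodes an enhancer of procollagen processing. Twist1 had 141 UMIs in all control and 37 in all mutant mouse cells, of which 69 and 10 were in pericytes. Among the 7 groups of mouse cells plotted, its level was above 10 CPM in control pericytes alone, at 15.2 CPM (11.8 to 19.2) against 3.63 CPM in the mutant.

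Between the libraries, none of the 8 members measured in mouse fibroblasts as a whole (at least 10 CPM in either library) differed by a factor of 2, meaning a log2((CPM + 10) ratio) of 1 or more. Of all 9702 measured genes, 11.6% were higher and 6.89% lower in mutant fibroblasts by that limit. The largest member difference was Tbx3, from 130 to 73.1 CPM, a log2 difference of -0.75, or -0.33 against genes of similar intron length. Tbx2 had -0.56, Tcf21 0.45 and Tbx4 0.37, and the median of the 8 was 0.01 beside -0.09 for all measured genes. Against genes of similar intron length Tcf21 had the largest difference, 0.89, while Tbx4 had 0.45 and Tbx2 -0.11.

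The fibroblast types differed from that sum. In alveolar fibroblasts Tbx3 was lower in the mutant, 96.8 against 27.9 CPM, a log2 difference of -1.50. It was the 1 member of 8 past the limit, where 10.2% of measured genes were higher and 7.1% lower. Against genes of similar intron length the difference was -1.03, and in 9 alternative analyses it stayed between -1.76 and -1.03. At 2000 UMIs per cell Tbx3 was seen in 17.4% of 1547 control and 4.59% of 2025 mutant alveolar fibroblasts, and unthinned in 51.5% and 26.3%.

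Foxf1 went from 54.0 to 23.8 CPM in alveolar fibroblasts (-0.92), Tbx2 from 456 to 269 CPM (-0.74) and Tbx5 from 205 to 136 CPM (-0.56). Tcf21 went from 567 to 833 CPM (0.55, and 1.03 against genes of similar intron length). Against such genes Foxf1 was -0.42, Tbx2 -0.25 and Tbx5 -0.61, so the first pair shrank and Tbx5 did not. Adventitial fibroblasts had 1 of 8 members past the limit, Tbx3 (70.9 to 26.1 CPM, -1.16), beside 9.48% of genes higher and 3.16% lower. Relative to genes of like intron length that value was -0.77.

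In myofibroblasts (535 control, 1025 mutant cells) 3 of 8 members passed the limit, beside 14.4% of genes higher and 10.5% lower. Tbx4 was higher, 159 against 346 CPM (1.07), and Tbx5 was 282 against 484 CPM (0.76). Tcf21 was lower, 109 against 14.0 CPM (-2.31), and Meox2 was lower, 67.7 against 5.40 CPM (-2.34). Both values depended on which cells entered the clusters. With species limits of 95% and 5% Tcf21 was -0.94 and Meox2 -0.94, and without doublet removal they were -0.48 and -0.85, all inside the limit. With both libraries clustered together there was no myofibroblast value, as a library then had fewer than 5 cells so named. In that run the smooth muscle class held 683 control and 79 mutant cells, against 402 and 78 here. Whether the myofibroblast clusters of the libraries match was not tested further.

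**Figure D3:**
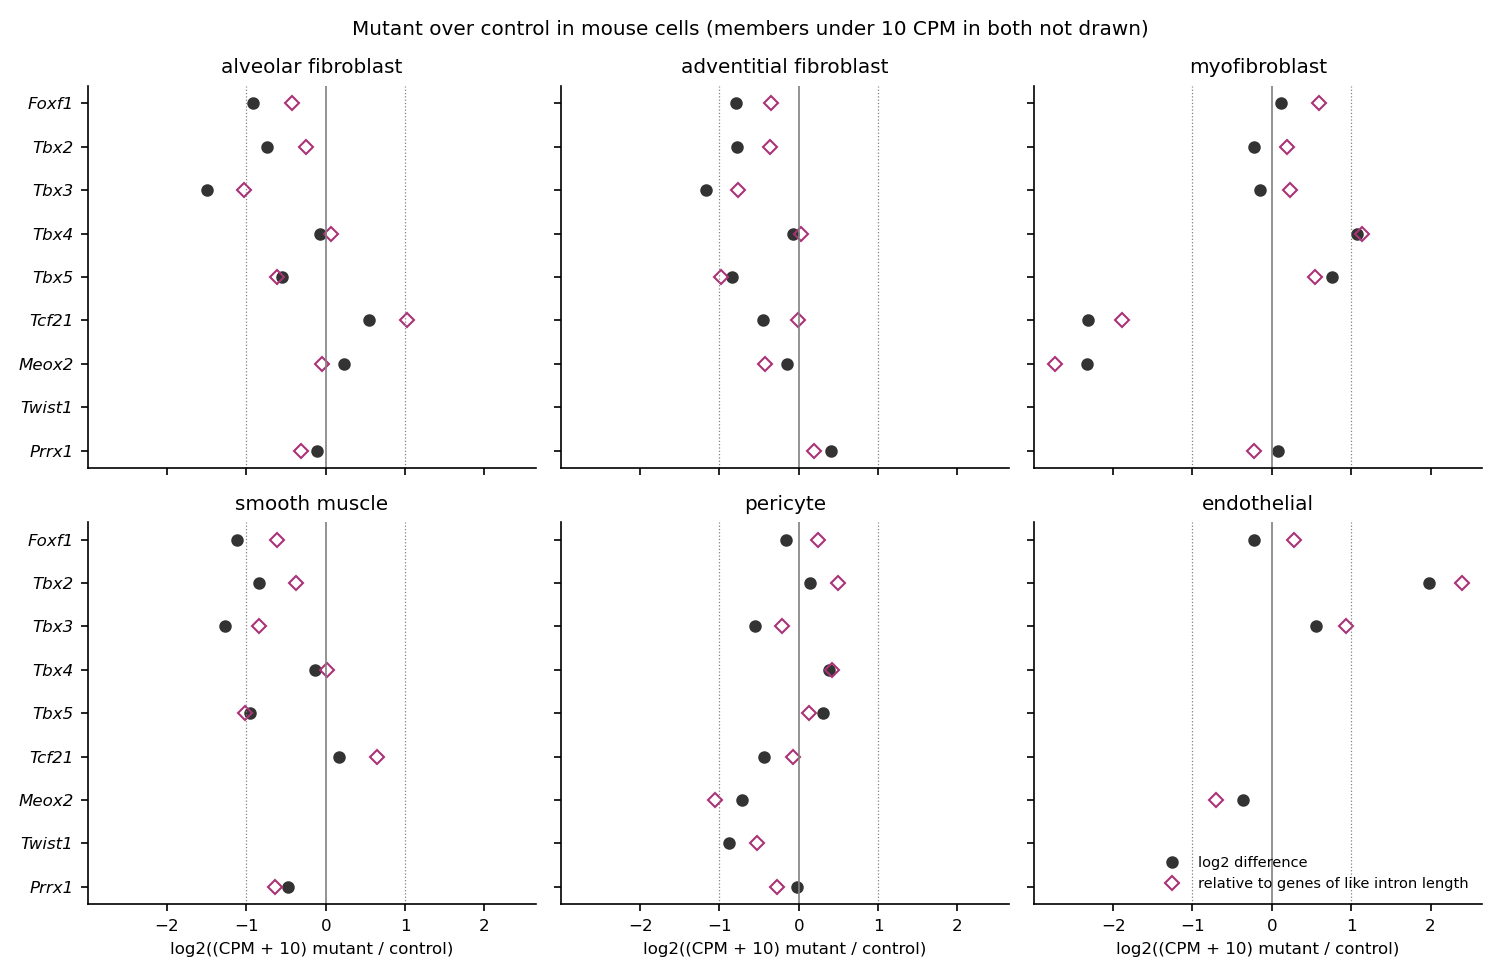
Log2((CPM + 10) ratio), mutant over control, of each member in 6 groups of mouse cells (filled circles) and the same relative to measured genes of like intron length (open diamonds); dotted lines mark a factor of 2, and members under 10 CPM in both libraries are not drawn. Tbx2 in endothelial cells lies at 1.99, and Tcf21 and Meox2 in myofibroblasts lie at -2.31 and -2.34.

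Smooth muscle cells had 2 of 7 measured members lower in the mutant, Foxf1 (427 to 190 CPM, -1.12) and Tbx3 (272 to 107 CPM, -1.27), beside 9.98% of genes higher and 5.76% lower. Tbx5 (-0.95) and Tbx2 (-0.84) were lower by less than the limit, and Tbx4 hardly differed (176 and 160 CPM). The mutant values come from 78 cells, with 167 UMIs of Foxf1 and 94 of Tbx3. The leading genes of the control cluster included Fgf18 and Lgr6, 2 of the myofibroblast markers used here. At a finer clustering 54 control cells remained in the class, where Foxf1 was -0.85 and Tbx3 -0.37, both inside the limit. Against genes of similar intron length Foxf1 was -0.61 and Tbx3 -0.84, both inside the limit. On that measure Tbx5 was -1.02, past the limit.

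None of 9 members passed the limit in pericytes, where 10.7% of genes were higher and 4.11% lower. The largest differences were Twist1 (-0.89, on 69 and 10 UMIs), Meox2 (60.02 to 32.6 CPM, -0.72) and Tbx3 (65.5 to 41.7 CPM, -0.55). Against genes of similar intron length Meox2 was -1.05, past the limit, while Twist1 was -0.52 and Tbx3 -0.21. Tbx4 (0.38) and Tbx5 (0.31) were higher by less than the limit.

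In endothelial cells Tbx2 was higher in the mutant, 76.9 CPM (72.7 to 81.3) against 11.9 CPM (10.2 to 13.9), a log2 difference of 1.99, or 2.39 against genes of similar intron length. It was the 1 of 4 measured members past the limit, beside 10.5% of genes higher and 3.61% lower, and in 11 alternative analyses it lay between 1.08 and 2.59. At 2000 UMIs per cell it was seen in 2.38% of 1008 control cells (1.53 to 3.52%) and 11.9% of 1805 mutant cells (10.5 to 13.5%). Unthinned, the shares were 8.29% and 27.5%. Epithelial cells at equal depth had 0.982% (0.396 to 2.01%) and 1.27%, so by share the control endothelial interval overlaps its background and the mutant one does not. By level the control epithelial cells had 7.25 CPM (6.29 to 8.32), below the control endothelial interval. Their median depth was 17806 UMIs, against 4225 in control endothelial cells, and free RNA can weigh more in shallower cells. The level therefore cannot show whether control endothelial Tbx2 was above free RNA. Tbx3 was 114 and 172 CPM (0.55), Foxf1 258 and 219 CPM (-0.23, but 0.28 against genes of similar intron length) and Meox2 25.0 and 17.3 CPM (-0.36).

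The Tbx2 RNA of mutant endothelium lay mainly in aerocyte-like cells, the capillary cells with wide, thin extensions that line alveoli. A cluster of 306 such cells was named in the mutant and none in the control. Tbx2 was 352 CPM (328 to 376) in them and 33.4 CPM in mutant endothelial cells of no named type, 12.0 CPM in venous-like and 3.90 CPM in arterial-like cells. Tbx3 was 409 CPM in the aerocyte-like cells against 144, 67.2 and 89.7 CPM in those groups, and Foxf1 was 406 CPM against 200.5, 158 and 87.1 CPM. Meox2 was 5.51 CPM in aerocyte-like cells, 18.1 CPM in cells of no type, 35.4 CPM in venous-like cells and 2.60 CPM in arterial-like cells, so the venous-like cells were highest of these. In 15 lymphatic-like cells Foxf1 was 10.1 CPM and Meox2 45.4 CPM, on 2 and 9 UMIs.

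**Figure D4:**
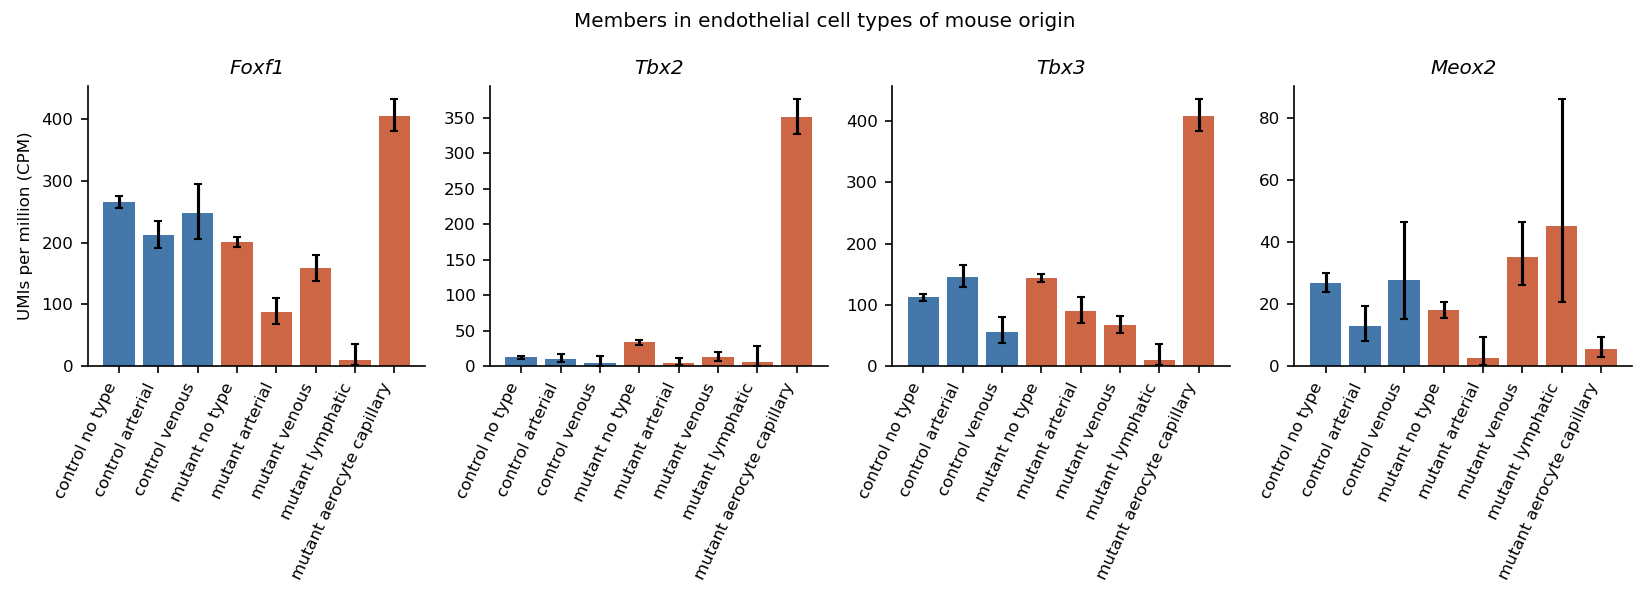
Level of Foxf1, Tbx2, Tbx3 and Meox2 (CPM, bars from 0, exact Poisson intervals) in endothelial cells by library and type, control in blue and mutant in orange. Tbx2 is at 352 CPM in mutant aerocyte-like cells and at 33.4 CPM or less in all other groups; no aerocyte-like cluster was named in the control.

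Car4, an aerocyte gene, was used to divide endothelial cells of at least 2000 UMIs in both libraries without clusters, a split added after the values above were seen. In the control 21 of 1008 cells (2.08%) had a Car4 UMI and in the mutant 394 of 1805 (21.8%). The control cells with a Car4 UMI had a median of 29407 UMIs against 6279 for those without, and in the mutant 7343 against 8053; the part of depth in this share was not tested. Among cells without a Car4 UMI, Tbx2 was 10.6 CPM in control and 31.6 CPM in mutant cells (1.02), Foxf1 254 and 184 CPM (-0.44) and Tbx3 112 and 132 CPM (0.22). With the aerocyte-like cluster left out, the Tbx2 difference was 0.83, below the limit, and that of Tbx3 0.18. Among cells with a Car4 UMI Tbx2 was 23.5 CPM in control and 246 CPM in mutant cells (2.93), Tbx3 171 and 323 CPM (0.88) and Foxf1 323 and 348 CPM (0.10). The control values rest on 21 cells, with 19 UMIs of Tbx2, and 16 of the 21 had only 1 Car4 UMI. The 8 aerocyte markers summed to 426 CPM in control and 1700 CPM in mutant endothelium. In cells with a Car4 UMI these markers summed to 508 CPM in control and 3353 CPM in mutant cells. In cells without one they summed to 426 and 1259 CPM. By these markers, neither Car4 group held like cells in the 2 libraries. Control endothelial cells were also shallower (median 4225 UMIs against 7621), and 498 of them formed a cluster with a median of 1491 UMIs, in which Tbx2 was 20.8 CPM. The part of depth in the Tbx2 difference was not tested beyond these values.

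The rat host cells of the control library gave a second look at the same factors in 210 fibroblasts, 152 smooth muscle cells and 86 pericytes, each measured over its own species' UMIs. Rat and mouse genes are different features with their own annotation, so a difference can also reflect how each transcript end is annotated, which was not tested. Foxf1 was higher in rat cells, 229 against 108 CPM in fibroblasts (1.01), 905 against 427 CPM in smooth muscle cells (1.07) and 461 against 227 CPM in pericytes (0.99). Tbx2 was much lower, 20.53 against 398 CPM (-3.74), 16.3 against 345 CPM (-3.75) and 17.7 against 394 CPM (-3.87). Fibroblasts had 1 member higher and 3 lower in rat, beside 6.56% and 16.9% of all measured genes, smooth muscle cells 1 and 4 beside 7.51% and 16.8%, and pericytes 0 and 3 beside 7.61% and 16.8%. Without Tbx2, whose rat value is in doubt, the members lower in rat number 2, 3 and 2. These counts include Prrx1 in all 3 classes and Tbx3 in fibroblasts and smooth muscle cells. At a finer clustering, with 93 rat and 54 mouse smooth muscle cells, Tbx3 was -0.47 and Prrx1 -0.84 in that class, both inside the limit. Of the 152 rat smooth muscle cells, 83 lay in a cluster whose leading genes included Fgf18 and Tgfbi, 2 of the myofibroblast markers used here. In control rat cells the mouse feature held 15.7% of Tbx3 UMIs and 17.1% of Prrx1 UMIs, beside 4.95% over all genes. The part of this in their lower rat values was not tested.

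In rat cells most Tbx2 UMIs were of the mouse feature. Control rat cells held 77 UMIs of rat Tbx2 and 234 of mouse Tbx2, so that 75.2% were of mouse, where mouse features made up 4.95% of all UMIs in those cells and 1.39% of Foxf1. In mouse cells the rat feature gave 0.0188% of Tbx2 UMIs. Whether these UMIs are rat reads assigned to mouse or mouse free RNA was not tested. The level of rat Tbx2 is therefore uncertain, and its low value is not read as a species difference.

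Tbx4 (136 against 147 CPM in fibroblasts) and Tcf21 (354 against 426 CPM) were within the limit between the species. As in mouse, rat Tcf21 and Meox2 were low in smooth muscle cells, at 1.63 and 4.89 CPM, and high in fibroblasts, at 354 and 256 CPM. The 2 larger rat fibroblast clusters also differed. In 67 cells whose leading genes included Ccl2 and Tnfaip8 Foxf1 was 473 CPM and Tcf21 94.4 CPM, and in 120 cells led by G0s2, Dpt and Hsd11b1 Foxf1 was 104 CPM and Tcf21 505 CPM. The naming rule put the alveolar name on the first, although the second scored higher on the alveolar fibroblast markers (mean log2 fold 1.98 against 0.97), so neither name is used here. Prrx1 was lower in rat in all 3 classes (-1.70, -1.13 and -1.18), on 10, 0 and 18 rat UMIs. For smooth muscle the count of 0 allows up to 2.44 CPM.

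**Figure D5:**
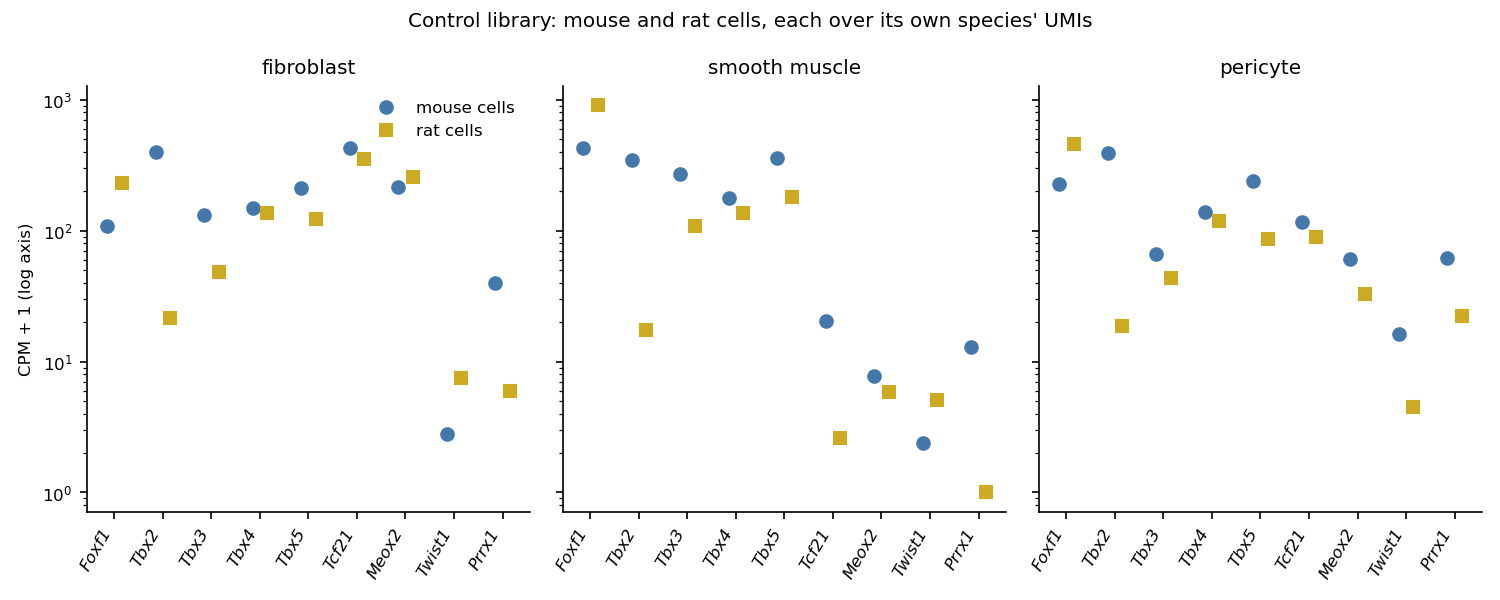
Level of each member (CPM + 1, log axis) in mouse cells (blue circles) and rat cells (yellow squares) of the control library, each over the UMIs of its own species. Foxf1 is higher in rat cells in all 3 classes, and rat Tbx2 lies between 16.3 and 20.53 CPM against 345 to 398 CPM in mouse cells.

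Among rat cells, only pericytes numbered at least 50 in both libraries, 86 in control and 63 in mutant. Although rat cells were clustered together, all 86 control cells lay in one cluster with 1 mutant cell, and the other 62 mutant cells lay in another, with pericyte markers at 6299 and 11130 CPM. In these, 3 of 8 measured members were higher in the mutant and none lower, beside 15.9% and 4.63% of all measured genes. Tbx2 was 17.7 and 115 CPM (2.17), Tbx4 118 and 279 CPM (1.18) and Tbx5 84.8 and 196 CPM (1.12). Foxf1 was 461 and 414 CPM (-0.15), and Tcf21 88.3 and 51.3 CPM (-0.68). In mouse pericytes of the same lungs Tbx4 and Tbx5 had differences of 0.38 and 0.31, so both had the same sign in the 2 species, and Tbx2 had 0.14. Against mouse genes of similar intron length Tbx4 was 0.42 and Tbx5 0.13, a measure not available for rat. Both species come from the same 2 libraries, so the shared sign is no independent check. The mouse feature held 75.2% of the Tbx2 UMIs of control rat cells but 19.0% of those of mutant rat cells, so both the size of the rat Tbx2 difference and its place past the limit are uncertain. Without Tbx2, 2 of 7 members were higher.

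The other factors of these cells were described by 4 lists. Of 41 other mesenchymal transcription factors, 34 were measured in mouse fibroblasts, 6 of them higher and 5 lower in the mutant (median -0.36), beside 11.6% and 6.89% of all measured genes. Foxp2 (2.56), Zeb1 (1.68) and Meis1 (1.52) were among those higher, but against genes of similar intron length only Foxp2 of the 6 stayed past the limit. Snai1, a repressor of epithelial genes, was lower (172 to 42.8 CPM, -1.78, and -1.33 against genes of similar intron length). Of 17 genes known downstream of or beside the T-box factors and Foxf1, 13 were measured, 5 higher and 0 lower (median 0.34), beside the same 11.6% and 6.89%. Myofibroblasts made up 535 of the 2734 control and 1025 of the 3400 mutant fibroblasts, and the part of this in the list's values was not tested. The 5 were Hhip, a hedgehog-binding protein made by myofibroblasts (133 to 699 CPM, 2.31), Cdkn1a (1.70), Myocd, a coactivator of smooth muscle genes (1.68), Fgf10, a growth factor for the epithelium (76.5 to 211 CPM, 1.35), and Fendrr (1.16). Against genes of similar intron length 4 of the 5 stayed past the limit and Fgf10 (0.65) did not.

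Of 11 partners of the helix-loop-helix factors, 7 were measured in fibroblasts, 0 higher and 3 lower (median -0.92), again beside 11.6% and 6.89%. All 3 were Id genes, whose proteins bind the partners of TCF21 and TWIST1 and keep them from DNA: Id1 (371 to 27.6 CPM, -3.34), Id3 (890 to 222 CPM, -1.96) and Id2 (126 to 49.99 CPM, -1.18). Against genes of similar intron length Id1 (-2.96) and Id3 (-1.50) stayed past the limit and Id2 (-0.69) did not. Of 18 endothelial transcription factors, 17 were measured in endothelial cells, 3 higher and 1 lower (median 0.23), beside 10.5% and 3.61% of all measured genes, so near the background. Mecom (1.41), Stat3 (1.19) and Erg (1.13) were higher and Sox18 was lower (-1.10). Relative to genes of like intron length only Stat3 of these stayed past the limit.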

How the data were processed

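The deposited matrices hold whole-number counts of UMIs per gene and barcode, made with Cell Ranger 6.0.1 (control) and 7.0.1 (mutant) per the file headers; builds mm10 and rn6 and Seurat 4.3 are named per the submitters' processing notes. The setting for intronic reads is open (not given in the sources used here). Barcodes were kept with at least 500 genes, at most 20% mitochondrial UMIs and at least 90% (mouse) or at most 10% (rat) mouse UMIs; those with a Scrublet score of 0.2 or more were removed (154 and 357 mouse cells). Mouse cells of each library were clustered apart and rat cells together (Scanpy 1.11.5, Leiden, resolution 1), without the 9 members, and named from marker lists. The naming rules, the separate clustering and the setting aside of 751 control and 62 mutant mouse cells in sub-clusters led by markers of another class were settled after a first look at the clusters' leading genes, as was the Car4 split. A gate on marker UMI shares was first run by mistake on log values, and that run is kept as an added alternative. UMIs were summed per class and library and given per 1000000 own-species UMIs (CPM). Intervals are exact Poisson, Clopper-Pearson or, for ratios, conditional binomial without a pseudocount. Intron lengths are from GENCODE vM21; relative values subtract the median of 500 measured genes of nearest intron length. The 9 members are all named; for each, the 3 genes most alike in pattern (at least 100 CPM in a group) were sought, and up to 5 examples per list of largest difference were allowed; some genes are not reported here. The members and lists were chosen with earlier results of these data known. Functions were tested on simulated data.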

Additional observations from a re-analysis of the deposited data

Results flagged for a closer look

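Tbx2, Tbx3, Tbx5 and Tcf21 had log2 differences of mutant over control of at least 0.5 and of opposite sign in 2 groups of mouse cells, with counting intervals that excluded 0 in both. The difference between the groups was not tested, since each condition had 1 library. Tbx2 was higher in endothelial cells (1.99) and lower in smooth muscle cells (-0.84). Tbx3 was higher in endothelial cells (0.55) and lower in alveolar fibroblasts (-1.50). Tbx5 was higher in myofibroblasts (0.76) and lower in smooth muscle cells (-0.95), and the latter value ran from -1.13 to 0.21 over the alternatives. Tcf21 was higher in alveolar fibroblasts (0.55) and lower in myofibroblasts (-2.31).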

How the results depend on the processing

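The number of members past a log2 difference of 1 moved in these settings, given as the count there. With cells chosen by a marker gate (UMI shares, and also log values) it was 1 lower in fibroblasts and 0 lower in smooth muscle cells, 2 higher there with UMI shares and 1 with log values, and 1 higher in rat over mouse pericytes with either. With Leiden resolution 2 it was 0 lower in smooth muscle cells, 3 in pericytes, 2 in alveolar and 2 in adventitial fibroblasts, and rat over mouse 2 lower in smooth muscle cells and 1 higher in pericytes. With at least 1000 genes per barcode it was 1 lower in smooth muscle cells, 2 in pericytes and 2 in alveolar fibroblasts. With a pseudocount of 1 CPM it was 1 lower in pericytes, 2 in alveolar fibroblasts and, rat over mouse, 1 higher in pericytes. With species limits of 95% and 5% it was 2 lower in alveolar fibroblasts and 0 lower and 0 higher in myofibroblasts. Without doublet removal it was 2 lower in alveolar fibroblasts and 0 lower in myofibroblasts. With both libraries clustered together, chosen after seeing the data, it was 1 lower in pericytes, 2 in alveolar and 2 in adventitial fibroblasts. Against genes of similar intron length it was 1 lower in smooth muscle cells and pericytes, 1 higher in alveolar and 0 lower in adventitial fibroblasts. With cells thinned to 2000 UMIs it was 1 lower in pericytes, 2 in adventitial fibroblasts and 0 higher in myofibroblasts. The causes were not tested. The 8 mutant over control differences past the limit kept their direction in every alternative run, and those of Tbx2 in endothelial cells and Tbx3 in alveolar fibroblasts stayed past it in all 11 and 9. Foxf1 in fibroblasts, myofibroblasts, pericytes and endothelial cells changed sign in at least 1 alternative. The smooth muscle class ranged from 54 to 683 control and from 78 to 848 mutant cells. Species limits of 95% and 5% left 39 rat fibroblasts, 8 rat smooth muscle cells and 17 rat pericytes in the control. All were under the minimum of 50 cells, so no class had a rat over mouse value at those limits. In the mutant 3 rat pericytes remained. The marker gate on UMI shares left 48 control rat fibroblasts and gave no value for them. The marker gates were not run for fibroblast types, and clustering both libraries together gave no myofibroblast value. No paired analysis was possible because each condition had 1 library.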

Other observations

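RNAs of the opposite strand that overlapped a member or lay within 5 kb of it were measured from the same libraries. Their differences went in both directions. Fendrr, a long non-coding RNA that starts 1.28 kb from Foxf1 on the other strand, was 42.6 CPM in control and 108 CPM in mutant fibroblasts, 29.2 and 124 CPM in pericytes and 133 and 473 CPM in endothelial cells, with log2 differences of 1.16, 1.77 and 1.75, while those of Foxf1 were -0.25, -0.16 and -0.23. Tbx3os1, which overlaps Tbx3 on the other strand, was 41.6 and 87.8 CPM in fibroblasts (0.92) and 1.62 and 47.9 CPM in endothelial cells (2.32), where Tbx3 had -0.75 and 0.55. Gm10824, which overlaps Tcf21 on the other strand, was 5.05 and 18.4 CPM in fibroblasts (0.92). There 2610027K06Rik, beside Tbx2, was also higher in the mutant (11.7 and 27.0 CPM, 0.77). Lower in mutant fibroblasts were Gm43050 beside Tbx5 (66.6 and 52.0 CPM, -0.30) and Gm11444 beside Tbx2 (23.7 and 10.3 CPM, -0.73). Mthfsd beside Foxf1 was 13.4 and 11.6 CPM (-0.11), and the others were scarce there. These differences are not relative to intron length. The use of strand in the counting is open (not given in the sources used here), and its part in these values was not tested.

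Mesothelial-like cells, the outer lining of the lung, numbered 34 in control and 26 in mutant mouse cells. Foxf1 was 143 and 74.1 CPM in them and Tbx3 8.41 and 10.1 CPM on 5 and 6 UMIs, while Tbx2 was 58.9 and 113 CPM and Tcf21 16.8 and 40.4 CPM. In 10 mutant rat cells named myofibroblast-like, Foxf1 was 554 CPM and Tcf21 10.1 CPM, the latter on 1 UMI.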
